A study of Mus musculus with 8 samples.

Results

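Type I interferons are cytokines that nearly all cells can make when they sense viral or misplaced nucleic acid. They bind a receptor of 2 chains, Ifnar1 and Ifnar2, and the kinases Jak1 and Tyk2 then activate transcription factors that bind, together with Irf9, the interferon-stimulated response element in the promoters of target genes. The products of those genes block steps of viral growth, and one of them, Irf7, in turn drives more interferon transcription. In the retina and brain, microglia and recruited macrophages are among the cells known to carry this response after injury.

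The 9 genes described here are such targets: Ifit1, Ifit2, Ifit3, Isg15, Oasl2, Rsad2, Irf7, Mx1 and Bst2. They were taken by symbol from the expression tables, 9 of 22558 symbols, and each matched 1 row. The tables hold 8 RNA-seq libraries from mouse retina, 4 of microglia (numbered 1 to 4) and 4 of infiltrating macrophages (numbered 5 to 8). All of them came from mice of about 5 months, of mixed C57BL/6 and 129 background, with the genotype Msi1-CreERT2/+; R26R-DTA/+, at day 7 after injury. In such mice a tamoxifen-dependent Cre made from the Msi1 gene switches on diphtheria toxin A, which kills the cells that express it. By the labels both populations share these alleles and this injury, and the titles of the macrophage libraries add the word GFP without explaining it. No uninjured retina is among the libraries used here. The values bear on the difference between the populations and not on induction by the injury. Whether each library is a different animal is not stated, and all p-values rest on the scatter of these 8 libraries, which may be technical.

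The values are FPKM, fragment counts divided by transcript length and by the number of mapped fragments, so that levels of different genes can be set side by side per length. FPKM sums ran from 295881 to 392753 in microglia and from 207077 to 512049 in macrophages, with macrophage 6 the highest. Microglia 2 had the fewest genes at 1 FPKM or more, 5992, against up to 10282 in the others. The 8 microglial markers summed to 2373 to 3322 FPKM in microglia and 653.6 to 2277 in macrophages, and the 8 monocyte markers to 64.7 to 104.6 and 250.7 to 1487, so each label had its own markers higher, although the microglial markers were far from absent in macrophages. Neutrophil markers summed to at most 1.36 FPKM in microglia and to 42.4 to 241.5 in macrophages, and S100a8 and S100a9 were listed at 0 in all 4 microglial libraries. S100a8, S100a9 and Retnlg made up most of the macrophage sum, while Ngp and Camp were listed at 0 in all 4 macrophage libraries and Ltf in 3 of them. Plasmacytoid dendritic cell markers summed to 1.84 to 35.4 FPKM in microglia and 7.81 to 20.9 in macrophages. Of that list Ccr9 lay between 0.0881 and 3.46 over all libraries. Cox6a2 reached 26.6 FPKM and Tcf4 11.3, both in microglia. Photoreceptor markers summed to 20.2 to 144.2 FPKM in microglia and 7.88 to 58.5 in macrophages, and erythroid markers to 2437 in microglia 3 and at most 164.6 in the other libraries. Y-linked genes summed to 11.7 to 25.8 FPKM in microglia 1 to 3 and to at most 1.97 in the other libraries, so the sex of the mice differed mostly along with the population. The part of these differences in the results below was not tested, except where a value without a library or with a Y-linked term is given.

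The promoters of these genes are the place where Stat2 and Irf9 are known to act, and 5 of them show the element's core in their own letters. RefSeq promoter windows of 300 bases (250 before to 50 after the start, build GRCm38.p6) were searched on both strands for GAAA, any 2 bases, then a second GAAA. The table held 8 of the 9 genes in 9 windows, and Mx1 was not in it. The core stood in the windows of Isg15, Bst2, Rsad2, Ifit3 and Ifit1, while 3.44% of all 32851 windows hold it. Below, each stretch is read 5′ to 3′ along the gene's own strand, capitals mark the core, and on the opposite strand it reads as TTTC, 2 bases, TTTC.
Isg15: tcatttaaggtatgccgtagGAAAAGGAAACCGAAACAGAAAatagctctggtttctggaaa
Bst2: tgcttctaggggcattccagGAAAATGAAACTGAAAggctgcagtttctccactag
Rsad2: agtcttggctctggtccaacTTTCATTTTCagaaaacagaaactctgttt
Ifit3: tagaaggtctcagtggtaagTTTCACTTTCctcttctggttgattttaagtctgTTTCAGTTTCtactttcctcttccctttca
Ifit1: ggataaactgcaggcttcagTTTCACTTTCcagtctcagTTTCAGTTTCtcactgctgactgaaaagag
These stretches lie at chr4:156200855-156200916 on the minus strand (Isg15), chr8:71537567-71537622 on the minus strand (Bst2), chr12:26456543-26456592 on the minus strand (Rsad2), chr19:34583353-34583436 on the plus strand (Ifit3) and chr19:34640765-34640833 on the plus strand (Ifit1).

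Isg15 had 3 matches that overlap in 1 run of repeated GAAA, from position -78 to -57 relative to its start. Bst2 had 2 overlapping matches from -130 to -115, and Rsad2 had 1 from -120 to -111. Ifit3 and Ifit1 carried 2 separate matches each, all on the strand opposite to the gene. Among all windows 0.225% hold 2 or more matches. A longer form with CT after the second GAAA stood in the windows of 3 of these genes, Bst2, Ifit3 and Ifit1, against 0.271% of all windows. In the windows of Oasl2, Irf7 and Ifit2 these letters were not found. Of 30 other type I response genes in the table, 10 held the core.

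The deposited loci, in mm9, put Ifit2 (34625184 to 34651024), Ifit3 (34658019 to 34663472) and Ifit1 (34715379 to 34724499) on chromosome 19 in a single cluster. GENCODE vM1 places these 3 genes on the plus strand. Between Ifit3 and Ifit1 lie 3 near relatives, Gm14446, I830012O16Rik and 2010002M12Rik. Isg15 lies at chr4:155573533-155574927, Oasl2 at chr5:115346943-115362254, Rsad2 at chr12:27127608-27141317, Irf7 at chr7:148449088-148452300, Mx1 at chr16:97668642-97684513 and Bst2 at chr8:74058161-74061336. Each locus is the whole span of the gene, exons and introns together. All 9 are annotated as protein coding in GENCODE vM1, and no other annotated gene overlaps any of them.

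All 9 genes had values above 0 in all 8 libraries, in both populations, over a wide span of levels. The lowest was Mx1 in microglia 2, at 0.058 FPKM, close to 0. By mean FPKM the order in microglia was Bst2, Irf7, Ifit3, Isg15, Ifit2, Oasl2, Rsad2, Ifit1 and Mx1. In macrophages it was Bst2, Irf7, Isg15, Ifit3, Oasl2, Ifit2, Ifit1, Mx1 and Rsad2. Bst2 stood above nearly all other genes, with 1.09% of the 9352 genes tested above its mean in microglia and 0.535% in macrophages. At the low end, 39.3% of tested genes had a higher mean than Mx1 in microglia and 37.5% a higher mean than Rsad2 in macrophages. In microglia the library ranges of neighbours in this order overlapped, except Bst2 above Irf7 and Ifit3 above Isg15. In macrophages the ranges of all neighbours overlapped. The plot of FPKM by library shows these values on a log axis.

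**Figure D1:**
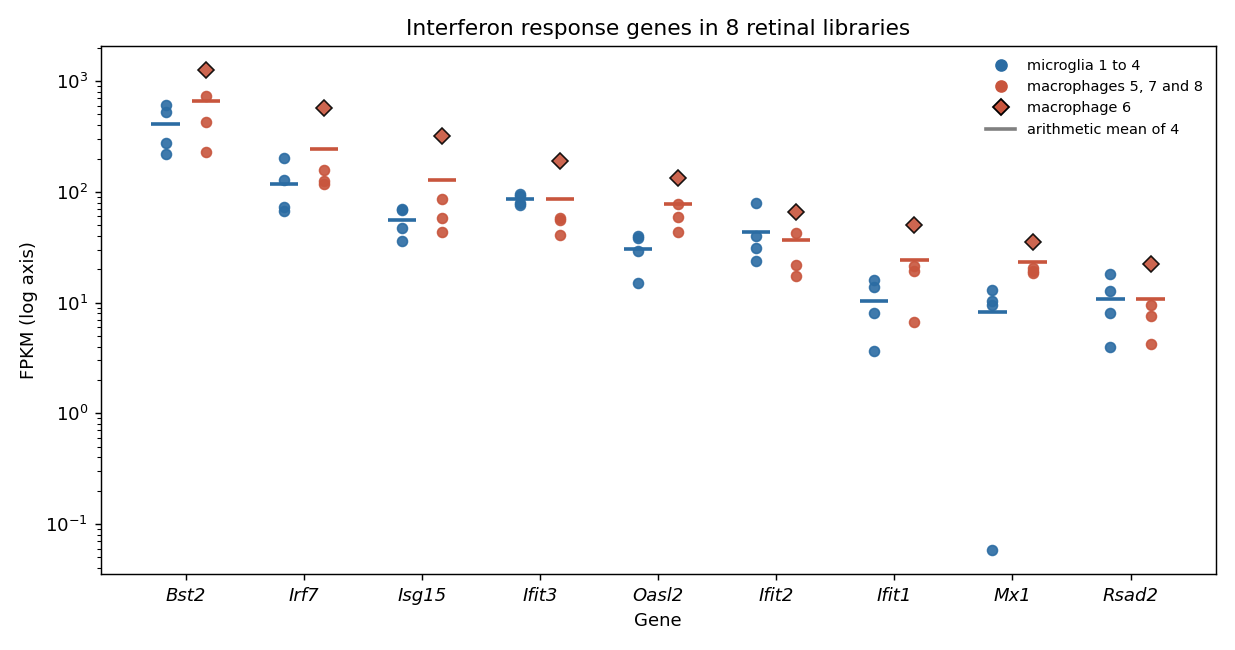
FPKM of each of the 9 genes in each library on a log axis, with microglia 1 to 4 and macrophages 5 to 8 as separate points and a line at the mean of each population. Oasl2 and Mx1 are the genes in which the 2 populations do not overlap, and macrophage 6 is the highest point for all genes but Ifit2.

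Of the 9 genes 0 were called different between the populations by limma on log2(FPKM + 1) at an adjusted p below 0.05, and 2.34% of the 9352 genes tested were called. At an unadjusted p below 0.05 there were 2 of 9, Oasl2 and Mx1, with 15.0% of tested genes reaching that level. Those were also the 2 genes whose populations did not overlap, both higher in each macrophage library, while 7.63% of tested genes did not overlap in either direction and 5.69% did so with macrophages higher. The difference of mean log2(FPKM + 1), macrophages minus microglia, was positive for 6 of the 9 and negative for 3, and its median was 0.77 beside 0.37 over all tested genes. Without macrophage 6 the medians were 0.16 and 0.19. In the exact permutation test 4 libraries against 4 cannot give a two-sided p under 0.0286. A gene at that p had an adjusted p of 0.374, so 0 of all 9352 tested genes passed after adjustment. That 0 of the 9 passed therefore carries no information about them. Bulk RNA cannot tell fewer cells of a kind from less RNA per cell.

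Mx1 and Oasl2, the genes with separate populations, come first. Mx1 makes a dynamin-like GTPase that binds influenza virus nucleocapsids, and many laboratory mouse strains carry a broken copy of the gene. The labels do not say which copy these mice carry, and FPKM do not show whether a working protein is made. Mx1 stood at 9.60, 0.058, 13.0 and 10.3 FPKM in microglia 1 to 4 and at 18.4, 35.5, 19.4 and 20.6 in macrophages 5 to 8. Each macrophage library was above the highest microglial one, and microglia 2 was close to 0. The log2 difference was 1.86 ± 0.74 (SE, n = 4 and 4, limma adjusted p = 0.232), with a 95% interval from 0.35 to 3.38, and the exact permutation p was 0.0286, or 0.374 adjusted over all genes. Without microglia 2 the difference was 0.99 (limma adjusted p = 0.495). That library was the lowest of all 8 in 42.3% of tested genes. Oasl2 makes a relative of the oligoadenylate synthetases with ubiquitin-like domains. Its levels were 38.7, 15.0, 39.8 and 29.1 FPKM in microglia and 58.7, 134.3, 43.1 and 77.6 in macrophages. The gap between the populations was narrow, from microglia 3 to macrophage 7. The log2 difference of Oasl2 was 1.29 ± 0.54 (SE, n = 4 and 4, limma adjusted p = 0.259; interval 0.18 to 2.40; exact permutation p = 0.0286). Its adjusted p was lowest, 0.0559, when libraries were scaled to an equal FPKM sum. The spread of Oasl2 within populations, 0.66 as an SD of log2(FPKM + 1), was the smallest of the 9 genes, and that of Mx1, 1.27, the largest.

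The 3 Ifit proteins hold tetratricopeptide repeats. The difference between the populations was positive for Ifit1 and negative for Ifit2 and Ifit3. None of the 3 was called, and whether they differ from each other was not tested. Ifit1, which recognises RNA caps that lack a methyl group, was at 8.05, 3.68, 13.9 and 15.9 FPKM in microglia and at 19.3, 50.2, 6.74 and 21.4 in macrophages. Macrophages 5, 6 and 8 were above every microglial library and macrophage 7 was within the microglial range. The log2 difference was 1.02 ± 0.66 (SE, n = 4 and 4, limma adjusted p = 0.490), and it was 0.58 without macrophage 6 and 0.65 without microglia 2. Ifit3, a partner that binds and steadies Ifit1 in human cells, showed the other layout. Its levels were 79.9, 75.8, 91.1 and 96.4 FPKM in microglia, close together, and 56.0, 191.4, 40.4 and 58.5 in macrophages. Macrophages 5, 7 and 8 were below every microglial library and macrophage 6 was far above them. The log2 difference was -0.26 ± 0.52 (SE, n = 4 and 4, limma adjusted p = 0.856), with an interval from -1.34 to 0.82, and it was -0.73 without macrophage 6. Ifit2 stood at 40.1, 23.6, 79.5 and 31.3 FPKM in microglia and at 22, 65.3, 17.4 and 42.2 in macrophages. The populations overlapped over most of their range, and microglia 3 held the highest value of all 8. The log2 difference of Ifit2 was -0.28 ± 0.57 (SE, n = 4 and 4, limma adjusted p = 0.862), and leaving out single libraries turned its sign.

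Near relatives of these genes bear on how reads could have been assigned. I830012O16Rik, named Ifit3b in RefSeq, is nearly identical to Ifit3, and how reads matching both were shared is not given in the sources used here. It stood at 51.8, 39.2, 61.1 and 55.6 FPKM in microglia and at 31.7, 122.7, 25.9 and 36.1 in macrophages, so macrophages 5, 7 and 8 were again below every microglial library (log2 difference -0.22 ± 0.55, SE, n = 4 and 4; limma adjusted p = 0.886). These values and those of Ifit3 are therefore uncertain as to which gene they belong to. Gm14446 (Ifit1bl1 in RefSeq) ranged from 0 to 4.75 FPKM in microglia and from 0.173 to 16.7 in macrophages, and 2010002M12Rik (Ifit1bl2) from 0.0434 to 2.25 and from 0.370 to 3.86. Oasl1, a relative of Oasl2, ranged from 2.21 to 17.1 FPKM in microglia and from 14.7 to 65.2 in macrophages, with a log2 difference of 1.55 ± 0.68 (SE, n = 4 and 4, limma adjusted p = 0.287). Mx2, next to Mx1, ranged from 0 to 2.53 and from 1.28 to 6.82. Of the 5 relatives 4 passed the filter on low values, and 0 were called by limma (1 at an unadjusted p below 0.05, a level that 15.0% of all tested genes reached).

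Isg15 and Rsad2 are effectors that act on proteins and lipids or nucleotides of the infected cell. Isg15 is a ubiquitin-like protein that is attached to other proteins and can also be secreted. It stood at 47.6, 68.4, 70.7 and 35.7 FPKM in microglia and at 86.4, 322.8, 57.5 and 43.7 in macrophages. Macrophages 7 and 8 lay inside the microglial range, and macrophage 6 was far above all others. The log2 difference was 0.77 ± 0.57 (SE, n = 4 and 4, limma adjusted p = 0.566), and it was 0.16 without macrophage 6. Rsad2, or viperin, makes an altered nucleotide that ends viral RNA chains. It stood at 3.97, 18.1, 12.8 and 8.07 FPKM in microglia and at 7.52, 22.2, 4.23 and 9.44 in macrophages. The populations covered nearly the same range, and the difference was -0.03 ± 0.67 (SE, n = 4 and 4, limma adjusted p = 0.988). Its interval, from -1.42 to 1.36, leaves room for a change of either sign.

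Irf7 and Bst2 were the most abundant of the 9 genes. Irf7 is the transcription factor that raises interferon production. It stood at 73.5, 200.4, 126.7 and 67.4 FPKM in microglia and at 116.9, 568.0, 156.1 and 125.0 in macrophages. Macrophages 5, 7 and 8 lay between the lowest and highest microglial library. The log2 difference was 0.84 ± 0.55 (SE, n = 4 and 4, limma adjusted p = 0.491), and it was 0.31 without macrophage 6. Bst2, or tetherin, holds budding virus particles at the cell surface. It stood at 278.9, 525.4, 605.9 and 219.2 FPKM in microglia and at 427.7, 1262, 727.3 and 229.6 in macrophages. Microglia 4 and macrophage 8 were both near the bottom, and the log2 difference was 0.55 ± 0.52 (SE, n = 4 and 4, limma adjusted p = 0.666), or 0.15 without macrophage 6.

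**Figure D2:**
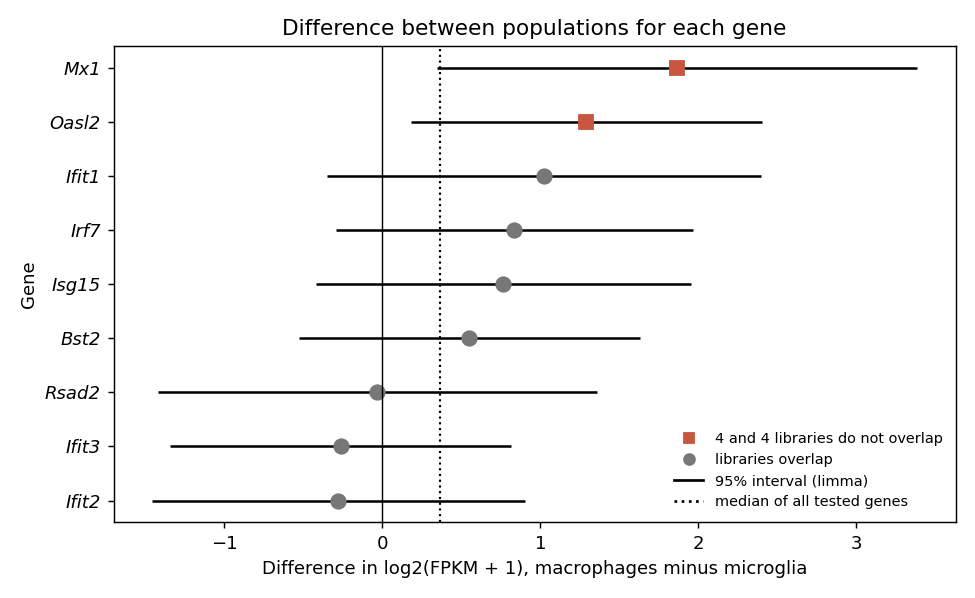
Difference of mean log2(FPKM + 1), macrophages minus microglia, for each of the 9 genes, with its 95% limma interval. The intervals of Mx1 (0.35 to 3.38) and Oasl2 (0.18 to 2.40) lie above 0 before adjustment, and those of the other 7 genes include 0.

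Macrophage 6 held the highest value of 8 of the 9 genes, all but Ifit2, and it was also the highest library for 43.0% of all tested genes. Its FPKM sum was the largest of all, so the comparison was repeated with each library scaled to an equal sum. Macrophage 6 was then highest for 4 of the 9 genes, Ifit1, Ifit3, Isg15 and Irf7, and for 10.8% of all tested genes. On that scale Isg15 stood at 204.7 in macrophage 6 against 93.3 in the next library, and Irf7 at 360.3 against 244.9. The highest library was macrophage 7 for Mx1 and Bst2, macrophage 8 for Oasl2, microglia 3 for Ifit2 and microglia 2 for Rsad2. Oasl2 and Mx1 still had no overlap. In FPKM as deposited, macrophage 6 also had the highest sums of monocyte markers (1487 FPKM) and of neutrophil markers (241.5 FPKM). Macrophage 7, with the smallest FPKM sum, had 137.4 FPKM of neutrophil markers. These marker sums were not rescaled, so their order at an equal sum is not given. Their part in the interferon response genes of macrophage 6 was not tested.

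The mean of the 9 genes, each centred on its own mean log2(FPKM + 1), was -0.46, -0.64, 0.23 and -0.41 in microglia and 0.0024, 1.54, -0.29 and 0.024 in macrophages. Macrophage 6 stood alone at the top, and macrophages 5, 7 and 8 were all inside the microglial range. Across the 8 libraries the correlation of each gene with the mean of the other 8 genes ranged from 0.440 (Mx1) to 0.833 (Isg15), as a description over libraries that share depth and scaling. Without macrophage 6 it was 0.567 for Oasl2, 0.550 for Ifit1 and 0.324 for Ifit2, and between -0.254 (Ifit3) and 0.182 (Mx1) for the other 6 genes. The joint movement of the genes thus rested largely on 1 library.

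**Figure D3:**
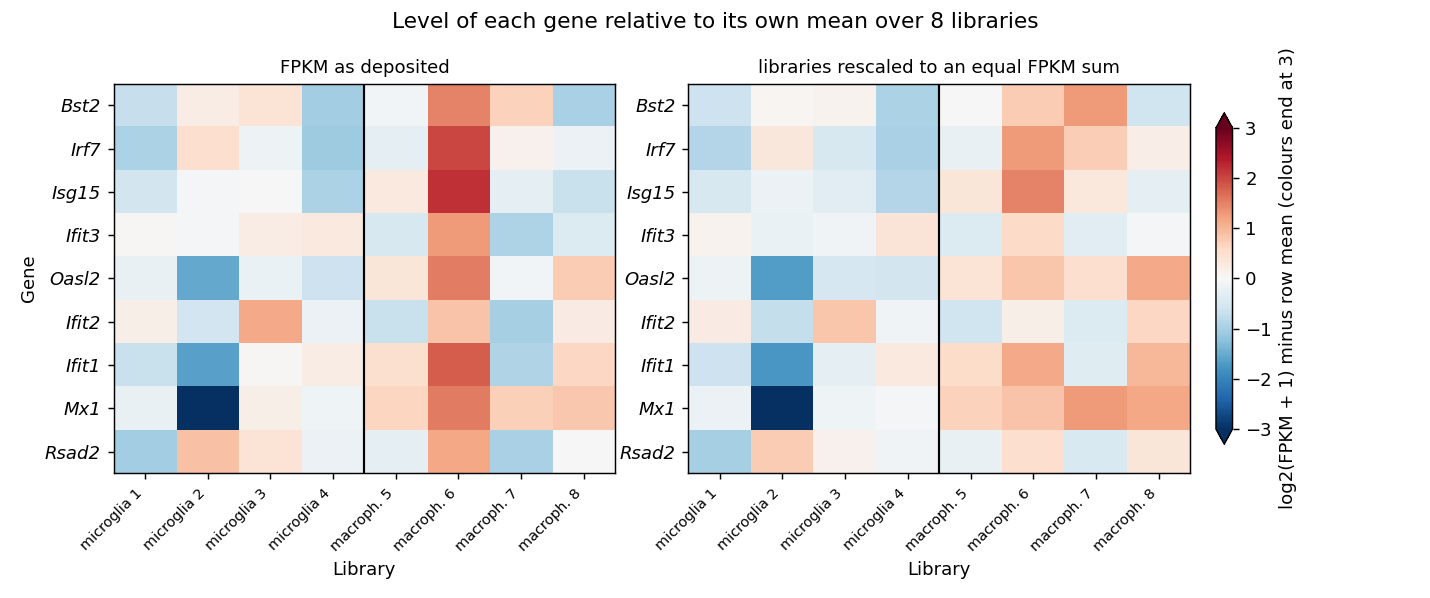
Log2(FPKM + 1) of each of the 9 genes minus its mean over the 8 libraries, with genes as rows and libraries as columns, for FPKM as deposited (left) and libraries rescaled to an equal sum (right), on a colour scale that ends at 3 in both directions. In the left panel the column of macrophage 6 is high for nearly every gene and in the right panel less so, and the lowest cell is Mx1 in microglia 2, at 0.058 FPKM.

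Ratios of the genes inside a library do not depend on its scaling. Of the 36 pairs of the 9 genes, 5 had ratios that did not overlap between the populations, a set noticed after the values were seen, and 9.88% of all pairs of tested genes above 0 in every library did so. The pairs share genes, and 4 of the 5 held Mx1 or Oasl2. Ifit1 was 0.0486 to 0.164 times Ifit3 in microglia and 0.167 to 0.366 times in macrophages. Ifit2 was 1.04 to 1.996 times Oasl2 in microglia, above it in all 4 libraries, and 0.375 to 0.544 times in macrophages, below it in all 4. Ifit3 was 2.07 to 5.04 times Oasl2 in microglia and 0.754 to 1.43 times in macrophages. The remaining pairs were those of Ifit2 and Ifit3 with Mx1, at 3.04 to 407 and 7.02 to 1307 in microglia and 0.899 to 2.05 and 2.09 to 5.39 in macrophages, where the upper ends come from microglia 2. As the pairs were picked after their values were seen, and their number is near the background, these ratios are given as a description only.

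The cytokines that start the pathway were at the edge of detection. Of 15 type I interferon genes found in the tables, 13 were below 1 FPKM in every library and none passed the filter. Ifnb1, interferon beta, was at 2.26 FPKM in microglia 4, 1.51 in macrophage 5 and 0.531 in macrophage 8, and listed at 0 in the other 5 libraries. Ifna4 reached 1.85 FPKM in macrophage 8. In macrophage 6, where most of the 9 targets were highest, all 15 were listed at 0, as they were in microglia 2 and 3. The type II and type III interferon genes looked up did not pass 0.642 FPKM.

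The receptor and its signal chain were present in both populations, and 0 of 6 genes were called by limma (2 at an unadjusted p below 0.05), with 3 positive and 3 negative differences and a median of 0.20. Over all 9352 tested genes 15.0% reached that unadjusted level, 6274 were positive, and the median was 0.37. Ifnar2 ranged from 41.4 to 116 FPKM in microglia and 38.9 to 118 in macrophages, and Irf9 from 19.5 to 47.0 and 17.2 to 55.4, both nearly the same ranges. Ifnar1, the other receptor chain, picked after its values were seen, stood at 3.38, 0.114, 2.67 and 5.38 FPKM in microglia and at 10.2, 35.5, 3.51 and 13.9 in macrophages. Macrophage 7 lay below microglia 4, and the log2 difference was 1.98 ± 0.77 (SE, n = 4 and 4, limma adjusted p = 0.220). Stat2, the partner of Irf9, picked after its values were seen, ranged from 9.76 to 13.0 FPKM in microglia and from 20.8 to 46.7 in macrophages with no overlap, and its log2 difference was 1.21 ± 0.56 (SE, n = 4 and 4, limma adjusted p = 0.309). Stat2 thus had the same layout as Oasl2 and Mx1.

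Genes that restrain the pathway had positive differences in 5 of 5 tested, with a median of 0.91, where 6274 of all 9352 tested genes were positive with a median of 0.37. By limma 0 were called (1 at an unadjusted p below 0.05, a level that 15.0% of all tested genes reached). Usp18, which removes Isg15 from proteins and blocks the receptor, ranged from 23.4 to 59.7 FPKM in microglia and from 43.3 to 130 in macrophages (log2 difference 0.91 ± 0.52, SE, n = 4 and 4, limma adjusted p = 0.428). Socs3, an inhibitor of Jak kinases, ranged from 8.30 to 31.3 and from 28.5 to 71.0 (1.45 ± 0.56, limma adjusted p = 0.220). Ptpn6, a phosphatase, ranged from 73.9 to 106 and from 103 to 251. The 3 enzymes that carry Isg15 to its targets, Uba7, Ube2l6 and Herc6, had differences of 0.25, 0.17 and 0.17, their ranges overlapped, and 0 had an unadjusted p below 0.05. Ube2l6 was high in 2 libraries, 196.7 FPKM in microglia 2 and 227.6 in macrophage 6, and at most 79.95 in the other libraries.

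Among 12 tested sensors and inducers of interferon 0 were called by limma (3 at an unadjusted p below 0.05), and 9 differences were positive and 3 negative, with a median of 0.75. Over all 9352 tested genes 15.0% reached that unadjusted level, 6274 were positive, and the median was 0.37. Irf5, a relative of Irf7, ranged from 3.86 to 75.9 FPKM in microglia and from 51.0 to 116 in macrophages (1.796 ± 0.67, limma adjusted p = 0.202). Zbp1, a sensor of left-handed nucleic acid, ranged from 1.28 to 44.2 and from 42.8 to 204 (1.92 ± 0.76, limma adjusted p = 0.235). Tmem173, the adaptor Sting, ranged from 31.8 to 55.3 and from 36.1 to 95.8. Tlr3, the endosomal receptor of double-stranded RNA, went the other way with no overlap, at 6.47 to 11.3 FPKM in microglia and 2.23 to 5.76 in macrophages (-0.86 ± 0.66, limma adjusted p = 0.575). It was singled out after its values were seen.

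Other type I response genes also leaned towards macrophages, as the whole table did. Of 40 tested, 32 differences were positive and 8 negative, with a median of 0.68, beside 6274 positive of all 9352 tested genes and a median of 0.37. There was no overlap in 5, all higher in macrophages, where 5.69% of all tested genes had that layout, and 0 were called by limma (6 at an unadjusted p below 0.05). Macrophage 6 was the highest library for most of the 40, and for 43.0% of all tested genes. The signs and medians of the pathway lists were not computed without macrophage 6, so how far the lean rests on that library was not tested. The most abundant of the 40 genes were high in both populations. Ifi27l2a ranged from 608.8 to 1558 FPKM in microglia and from 329.3 to 2000.2 in macrophages, Ifitm3 from 177 to 1571 and from 468 to 1913, and Ly6e from 229.7 to 749 and from 357 to 932, with log2 differences of -0.39, 0.11 and 0.04. Lgals3bp and Lgals9, which encode a galectin-binding protein and a galectin, had differences of -0.68 and -0.30. The 5 without overlap, named after their values were seen, were Ifi44, Parp14, Ddx60, Samd9l and Tap1. Ifi44 had the lowest adjusted p, with 0.00441 to 6.06 FPKM in microglia and 9.28 to 20.9 in macrophages (2.55 ± 0.72, limma adjusted p = 0.0637). Over the 5 pathway lists together, 66 of 68 genes were tested, 12 had an unadjusted p below 0.05, all higher in macrophages, where 15.0% of all tested genes reached that level in either direction. Differences were positive for 52 and negative for 14, and 0 were called by limma.

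**Figure D4:**
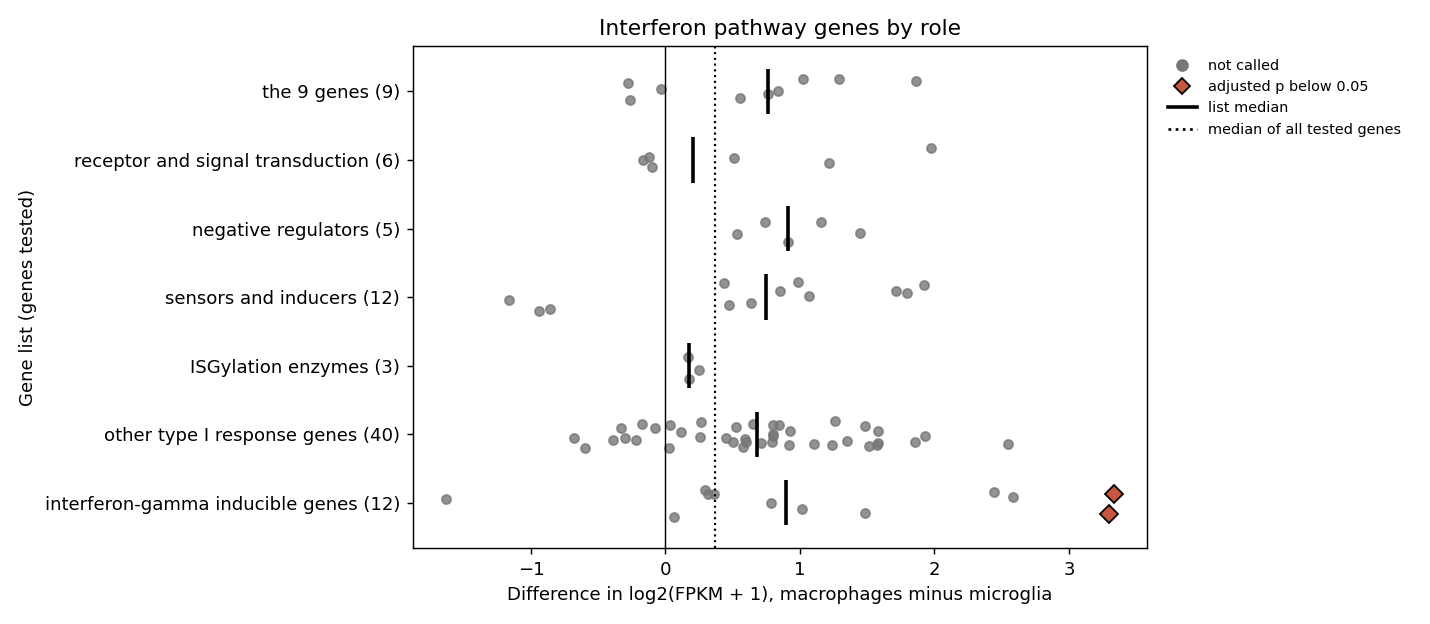
Log2 difference, macrophages minus microglia, of each tested gene of the interferon pathway, grouped by role with the 9 genes as a group of their own, and each group's median as a line beside the median of all tested genes (0.37). The groups overlap widely, and the 2 called genes, Irf1 and Ifi47, are both in the list inducible by interferon gamma.

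Genes best known as targets of interferon gamma, a separate cytokine with its own receptor, held the 2 calls in these lists. Of 12 tested, 2 were called higher and 0 lower, where 2.34% of all tested genes were called. At an unadjusted p below 0.05 there were 4 higher and 1 lower, where 15.0% of all tested genes reached that level in either direction. Beside 6274 positive of all 9352 tested genes and a median of 0.37, 11 of these differences were positive, with a median of 0.90. The negative one was Iigp1, another interferon-inducible GTPase, named after its values were seen, at 1.87 to 11.5 FPKM in microglia and 0.0665 to 4.13 in macrophages (-1.63 ± 0.70, limma adjusted p = 0.279). Irf1, a transcription factor of that response, stood at 4.81, 0.0269, 0.757 and 13.5 FPKM in microglia and at 39.4, 39.6, 29.9 and 30.3 in macrophages. All 4 macrophage libraries were close together and above each microglial one, with a log2 difference of 3.34 ± 0.73 (SE, n = 4 and 4, limma adjusted p = 0.0117). The call was lost in 5 of 22 limma alternatives, among them without macrophage 6 (3.27, adjusted p = 0.0601), with the Y-linked term (2.81, adjusted p = 0.442) and without microglia 2 and 3 (1.95, adjusted p = 0.158). The exact permutation p of Irf1 was 0.0286, the smallest that test can give, or 0.374 adjusted over all genes. After adjustment that test called none of the tested genes, so it does not bear on the call of Irf1. Ifi47, an interferon-inducible GTPase, stood at 3.56, 24.9, 8.12 and 0.0312 FPKM in microglia and at 42.0, 216.8, 19.9 and 52.5 in macrophages, and macrophage 7 lay below microglia 2. Its difference was 3.30 ± 0.82 (SE, n = 4 and 4, limma adjusted p = 0.0266). The call was lost in 9 of the 22 limma alternatives, among them without macrophage 6 (2.65, adjusted p = 0.162), macrophage 8 (3.33), microglia 1 (3.19) or microglia 4 (2.47). The exact permutation p of Ifi47 was 0.0571, or 0.438 adjusted over all genes, in the same test that called no gene. Whether these lists differ from the 9 genes was not tested.

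The genes whose pattern over the 8 libraries was most like the mean of the 9 were Rnps1, Ttc5, Srgn, 1110004F10Rik and Sub1, out of 5447 tested genes whose mean reached 5 FPKM. Their Pearson r with that mean was 0.973, 0.973, 0.968, 0.967 and 0.965, and Spearman's rho was 0.976, 0.952, 0.929, 0.905 and 0.833. Without the libraries farthest from the median, microglia 2 and macrophage 6, r was 0.889, 0.845, 0.842, 0.682 and 0.847. All 5 were highest in macrophage 6, and none of them is in the pathway lists. These correlations describe libraries that share scaling and depth, and no p is given.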

How the data were processed

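RNA from retinas was made into Illumina mRNA libraries, per the labels' protocols. The authors deposited FPKM per gene with coordinates and a status, made with Cufflinks 2.1.1 on mm9 after bcl2fastq 1.8.4, per the submitters' processing notes. For the aligner and the annotation, the sources used here name none. The deposited FPKM were used as they stand, and FPKM intervals in the files were not used, since 927 to 1960 values per library lay outside their own interval. Of 23021 rows, those sharing a symbol were summed to 22558 symbols, and 9 symbols with a FAIL status were left out. Depth was not stated. An approximate 11.7 (microglia 1) to 24.5 × 1e6 fragments per library was estimated from the most frequent low FPKM of 7503 genes with a single transcript, and counting error was not modelled.

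The 9352 genes that reached 1 FPKM in 4 or more libraries were tested on log2(FPKM + 1), using limma 3.58.1 (R 4.3.3) and its intensity trend, two-sided, with Benjamini-Hochberg adjustment over all genes tested, and called at an adjusted p below 0.05. Folds on this scale understate changes of low genes. The script was tested on simulated data. An exact permutation test, other pseudocounts, filters and scalings, left-out libraries and a term for Y-linked expression were alternatives. Named in each pathway list were every called gene and the most abundant 3 (5 in the longest list). The members and lists were chosen with earlier results of these data known, and 1 pathway gene is not reported here. Promoter coordinates are GRCm38.p6 and deposited loci mm9, and none were converted.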

Additional observations from a re-analysis of the deposited data

Results flagged for a closer look

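Within each population the highest and lowest value of each named gene was compared with the other 3 values by Dixon's test (the gap to the nearest value over the range, at the 95% critical value). A rate of about 1 in 20 by chance holds only for normal, independent values. The FPKM were not log-transformed, and some genes were named for a high mean in these libraries. The counts are therefore a description. Of 66 groups tested 13 had a value past the critical one, each the highest of its group. In macrophage 6 there were 10: Ifit3 at 191.4 FPKM (next 58.5), Isg15 at 322.8 (86.38), Irf7 at 568 (156.1), Mx1 at 35.5 (20.65), I830012O16Rik at 122.7 (36.05), Oasl1 at 65.17 (19.9), Ube2l6 at 227.6 (79.95), Ifitm3 at 1913 (603.7), Ly6e at 932.2 (432.1) and Ifi47 at 216.8 (52.48). These genes come from 1 library and are not independent, and that library also had the highest FPKM sum.

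In microglia 2, Ube2l6 stood at 196.7 FPKM (next 64.65) and Lgals9 at 559.8 (338). In microglia 3, Tmem173 stood at 55.28 FPKM (next 34.55). The cause of these values was not tested.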

How the results depend on the processing

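Of the 9 genes 0 were called in any alternative, and the median of their differences stayed positive, from 0.16 without macrophage 6 to 1.07 without microglia 2 and 3. Over 22 alternatives the difference kept its sign for Oasl2 (0.93 to 1.53), Mx1 (0.99 to 2.58), Ifit1, Irf7, Isg15 and Bst2. The other 3 turned sign. With single libraries left out Ifit2 ran from -0.61 to 0.0551, Ifit3 from -0.73 to 0.0052 and Rsad2 from -0.43 to 0.29. Rsad2 was also positive with equal sums (0.10), sample weights (0.26) and without microglia 2 and 3 (0.60).

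Genes called over the whole table were 219 (70.3% higher), 136 with a pseudocount of 0.1, 50 with no filter, 129 with a mean of at least 5 FPKM, 336 with equal sums, 1075 with sample weights, 34 with the Y-linked term, 0 by the exact permutation test, and 119 to 258 with 1 library left out (119 without macrophage 8, 122 without macrophage 5, and 49.7% higher without macrophage 6). The exact permutation test could call no gene after adjustment because of its smallest p, so its count is not a measure of stability. Calls were 59.5% higher with upper-quartile scaling, 55.3% with median-of-ratios scaling and 53.4% with quantile normalization. The median difference of all genes was 0.37 as deposited and -0.03, 0.17, 0.27 and 0.47 under quantile, median-of-ratios, upper-quartile and equal-sum scaling. With the Y-linked term Mx1 was at 2.07 (adjusted p = 0.824) and Oasl2 at 1.48 (0.914). The causes were not tested. The estimated depth is approximate, and its effect on low genes such as Mx1 and the interferons was not tested. No paired analysis was possible because the populations share no replicate numbers.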
